A study of Mus musculus with 10 samples.

Results

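The p38 and JNK stress kinases of the mouse spleen were followed through 10 genes, chosen by their names in the deposited table. These are the p38 genes Mapk14, Mapk11 and Mapk13, the JNK genes Mapk8 and Mapk9, the MAP2 kinase genes Map2k3, Map2k6, Map2k4 and Map2k7, and Mapkapk2, which codes for the p38 target kinase MK2. All 10 were found among the 54532 genes listed, and all 10 passed the filter on low values, a mean level of 0.1 FPKM or more (FPKM is the fragment count scaled to gene length and library total). Spleens came from 5 DUSP6 KO mice, which carry the Dusp6tm1Jmol allele in all tissues and whose genotype the labels give as a knockdown, and from 5 WT mice (C57BL/6J), with 1 library per mouse. Both groups, male and female mice according to the labels, had received 100 µL of pooled serum from arthritic offspring of a KRN x NOD cross into the peritoneum on days 0 and 2 (KRN serum induced arthritis, KSIA), and the spleens were taken on day 9, so no spleen without serum was compared. By the study's methods the mice were 8 to 12 weeks old, and the KO and WT mice were bought as separate strains from the Jackson Laboratories. Nothing in the labels says that KO and WT animals were littermates, so genotype and strain of origin cannot be told apart here. Animals are named here by the numbers in their labels.

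Mitogen-activated protein kinases work in 3 tiers, in which a MAP3 kinase phosphorylates a MAP2 kinase and the MAP2 kinase phosphorylates the MAP kinase. MKK3 and MKK6, from Map2k3 and Map2k6, activate p38, MKK7, from Map2k7, activates JNK, and MKK4, from Map2k4, can act on both. In myeloid cells and lymphocytes these cascades answer cytokines, bacterial products and stress, and p38 acts through MK2 on the stability of cytokine mRNAs. DUSP6 is a phosphatase that acts mainly on ERK, the third MAP kinase of this family. Activity of all these kinases is set by phosphorylation, which mRNA levels do not measure.

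Dusp6 stood at 0.308 to 0.624 FPKM in the DUSP6 KO spleens and at 16.6 to 23.98 FPKM in the WT spleens, in accord with the labels of all 10 libraries. Library depth was 14990474 to 19822673 reads assigned to genes. No library had a female pattern, although the labels name both sexes (Xist reached 0.0206 FPKM, and Ddx3y from the Y chromosome did not drop under 14.4 FPKM). WT 67 stood apart: its summed level of 8 exocrine pancreas markers was 12824 FPKM, WT 65 had 155 FPKM, and the other 8 libraries had 9.46 to 26.2 FPKM (Prss1 was at 0 throughout). Markers of spleen B cells, T cells, macrophages and erythroid cells were detected in every library, and their levels differed between libraries, as given beside the results they touch.

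The members with the widest spread between spleens of the same group were Map2k3, Mapk13 and Mapk11, and the bases directly before their first exons are shown so that these 3 genes can be looked at in sequence. Each lies upstream of the gene start, reads 5′ to 3′ on the gene's strand, and comes from the RefSeq promoter table of build GRCm38.p6, in which all 10 members were matched. Map2k3 is at chr11:60931804-60932032 on the plus strand, Mapk13 at chr17:28769067-28769296 on the plus strand and Mapk11 at chr15:89149629-89149856 on the minus strand. The Map2k3 window overlaps an exon of the antisense gene Map2k3os, and the other windows overlap no annotated exon. Capitals mark a match to the GATA motif, the letters bound by GATA1 in erythroid cells, searched as GATAA or GATAG after an A or a T, on both strands.
Map2k3: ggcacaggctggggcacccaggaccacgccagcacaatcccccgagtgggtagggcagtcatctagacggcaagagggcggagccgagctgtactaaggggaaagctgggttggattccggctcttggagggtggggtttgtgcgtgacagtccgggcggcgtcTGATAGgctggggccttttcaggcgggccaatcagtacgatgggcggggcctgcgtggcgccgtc
Mapk13: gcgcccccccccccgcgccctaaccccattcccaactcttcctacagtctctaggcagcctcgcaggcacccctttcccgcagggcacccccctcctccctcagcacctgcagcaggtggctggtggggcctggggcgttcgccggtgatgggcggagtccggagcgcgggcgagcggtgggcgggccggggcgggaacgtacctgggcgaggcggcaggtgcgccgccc
Mapk11: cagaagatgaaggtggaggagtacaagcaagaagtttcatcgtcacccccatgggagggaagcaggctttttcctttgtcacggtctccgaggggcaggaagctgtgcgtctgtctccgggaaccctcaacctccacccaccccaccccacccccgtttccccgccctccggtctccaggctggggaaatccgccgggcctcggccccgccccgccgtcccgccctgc
Map2k3 holds 1 match, 86 bases before its RefSeq start, and the Mapk13 and Mapk11 stretches hold none. Over the whole RefSeq promoter window, 2 of the 10 members (Map2k3 and Map2k6) held a GATA match, beside 29.8% of 32851 mouse promoters. The AP-1 motif bound by JUN, a JNK substrate, was searched as TGAGTCA and TGACTCA and the cyclic AMP response element as TGACGTCA. Neither was found in the windows of the 10 members, beside 5.20% and 1.79% of all promoters. A match describes letters only and shows no binding.

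Over the 10 kinases, no difference between DUSP6 KO and WT spleens passed the test after adjustment over the 21296 genes tested (limma, Benjamini-Hochberg), with adjusted p from 0.789 to 0.997. At this threshold 0.0704% of all genes were called. Without adjustment, 1 of 10 was lower in DUSP6 KO spleens (Mapk13), where 3.03% of all genes were, and 0 of 10 were higher, where 2.62% of all genes were. The median log2 fold change of the 10 was 0.04 (DUSP6 KO minus WT), and with 1 library left out it ran from 0.01 (without DUSP6 KO 21) to 0.07 (without DUSP6 KO 26). That of all genes tested was −0.0046, and 7 of the 10 members lay within 0.1 of 0. In none did all 5 DUSP6 KO values lie below all 5 WT values, as in 0.563% of all genes, or above them, as in 0.549%. In bulk tissue, fewer cells of a type and less RNA per cell cannot be told apart.

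**Figure D1:**
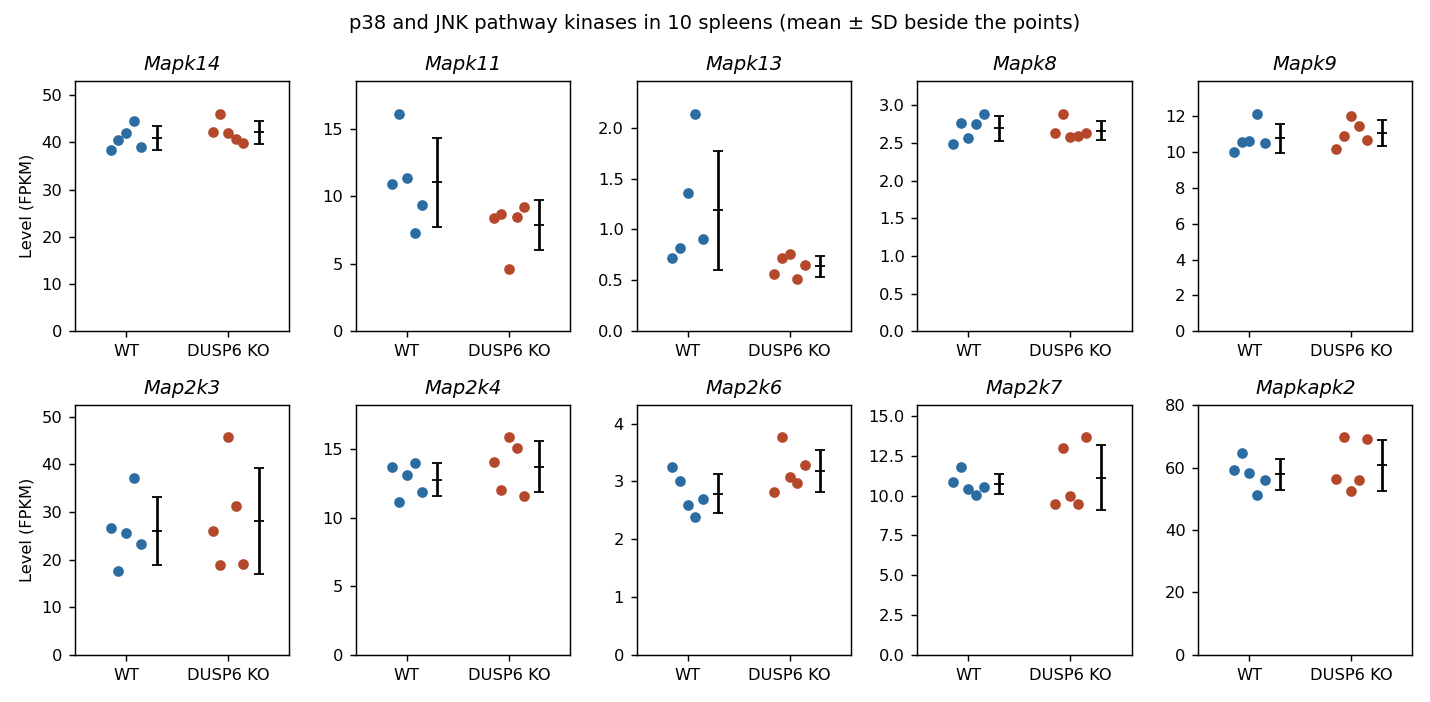
Levels of the 10 kinases in FPKM (vertical axis, from 0) in 5 WT and 5 DUSP6 KO spleens, 1 point per spleen, with the group mean ± SD beside the points. The groups overlap in every panel, and Mapk13 comes closest to separation, with 4 of 5 DUSP6 KO spleens below every WT spleen.

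Mapk14, which codes for p38α, the main p38 of most tissues, lies on chromosome 17 at 28691329 to 28748406 (GRCm38, plus strand). Its level was 42.2, 46.1, 42.1, 40.7 and 39.8 FPKM in DUSP6 KO spleens 26, 21, 73, 01 and 03, and 38.4, 40.5, 41.99, 44.6 and 39.04 FPKM in WT spleens 65, 67, 73, 77 and 83. The groups overlapped over nearly their whole range. The log2 fold change was 0.04, with a 95% confidence interval of −0.11 to 0.19, so a change of more than 1.14-fold upward or to less than 0.929 of the WT level lay outside the interval. Among all genes tested, Mapk14 was one of the steadiest: its SD within groups, 0.084 on the log2 scale, was at percentile 2.37. This rank is over genes of all levels, and genes of like level were not compared.

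Mapk13 codes for p38δ and starts 20.9 kb beyond the end of Mapk14 on chromosome 17 (28769297 to 28780233, plus strand). It was the least abundant member. DUSP6 KO spleens 26, 21, 73, 01 and 03 had 0.561, 0.718, 0.758, 0.513 and 0.651 FPKM, and WT spleens 65, 67, 73, 77 and 83 had 0.724, 0.815, 1.36, 2.14 and 0.903 FPKM. Only DUSP6 KO 73 reached into the WT range, above WT 65, and WT 77 and WT 73 stood well above the rest. These values rest on 33 to 44 reads in the DUSP6 KO and 39 to 112 reads in the WT libraries. DUSP6 KO minus WT, the difference was −0.71 on the log2 scale (SE 0.28, 95% confidence interval −1.32 to −0.10), with an unadjusted p of 0.027 and an adjusted p of 0.789 in limma. Without WT 77 it was −0.48 with an unadjusted p of 0.054 in limma, and it also exceeded 0.05 without DUSP6 KO 26 (0.055), DUSP6 KO 01 (0.061) or WT 73 (0.065).

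Mapk13 moved with the neutrophil markers of the same spleens. All 14 markers of neutrophils and their precursors had negative log2 fold changes (median −1.13), 8 of them with an unadjusted p under 0.05 in limma, beside 3.03% of all genes lower, and 0 after adjustment, and their summed level was 621 to 2098 FPKM in DUSP6 KO against 1192 to 5326 FPKM in WT spleens, with none of the 14 at 0. WT 77 had the highest sum of markers and the highest Mapk13, and DUSP6 KO 01 the lowest of both. Across the 10 libraries the mean log2 level of the markers and that of Mapk13 gave Pearson's r of 0.91 (permutation p = 0.00028, 0.0084 adjusted over 90 relations) and Spearman's rho of 0.90 (permutation p = 0.00091, adjusted 0.020). Pearson's r was 0.73 without the 2 libraries farthest from the median of the markers and 0.85 after centring within groups. Beside Mapk13, the genes with the most similar levels over the 10 libraries, among 13421 compared, were Ighv1-12 (r = 0.95), Alox5 (0.95), which codes for the 5-lipoxygenase of leukotriene synthesis, and Padi4 (0.95), a peptidylarginine deiminase of neutrophils. Mapk13 also rose with the megakaryocyte and platelet markers, at r = 0.83 (permutation p = 0.0056, adjusted 0.051). By rho this was 0.65 (permutation p = 0.049, adjusted 0.292). Pearson's r was 0.60 without the 2 farthest libraries and 0.76 within groups. All 6 of these markers had negative log2 fold changes, 2 of them with an unadjusted p under 0.05 in limma. The parts of the neutrophil and platelet levels in the Mapk13 difference were not tested.

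Mapk11 codes for p38β and lies on chromosome 15 at 89142486 to 89149628 (minus strand). In DUSP6 KO spleens 26, 21, 73, 01 and 03 it stood at 8.37, 8.71, 4.61, 8.49 and 9.19 FPKM, against 10.96, 16.1, 11.4, 7.31 and 9.37 FPKM in WT spleens 65, 67, 73, 77 and 83. DUSP6 KO 73 was the lowest of all 10 and WT 67 the highest, and the lowest WT spleen, WT 77, was below 4 of the 5 DUSP6 KO spleens. A log2 fold change of −0.47 was fitted (SE 0.23, 95% confidence interval −0.99 to 0.04), with an unadjusted p of 0.067 and an adjusted p of 0.922 in limma. Without WT 67, the library with pancreas markers, it was −0.33, and without DUSP6 KO 73 it was −0.29, while without WT 77 it was −0.61 with an unadjusted p of 0.023 in limma.

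Mapk11 followed the B cell markers. Their summed level (7 markers, none at 0) was 648 to 1275 FPKM in DUSP6 KO against 735 to 1652 FPKM in WT spleens, with the lowest sum in DUSP6 KO 73 and the highest in WT 67, as for Mapk11 itself. All 7 had negative log2 fold changes, none with an unadjusted p under 0.05. Pearson's r between Mapk11 and the markers was 0.88 over 10 libraries (permutation p = 0.0011, 0.016 adjusted over 90), 0.71 without the 2 farthest libraries and 0.93 within groups. Spearman's rho was 0.75 (permutation p = 0.017) and did not pass after adjustment (0.155). The genes most like Mapk11 in level were Arhgef18 (r = 0.98), Fbxl12 (0.96) and Angel2 (0.96). Mapk11 also fell as the erythroid markers rose (r = −0.72, rho = −0.70, adjusted permutation p of 0.118 and 0.211). That r was −0.76 without the 2 farthest libraries and −0.77 within groups. With the T cell markers r was 0.71 (adjusted permutation p of 0.136) and 0.09 without the 2 farthest. The exocrine pancreas markers, also highest in WT 67, gave r of 0.68 and rho of 0.15 (adjusted permutation p of 0.260 and 0.862). That r was −0.43 without the 2 farthest and 0.58 within groups. With the neutrophil markers r was −0.25, and −0.89 within groups. What the B cell level or any other cell type contributes to the Mapk11 values was not tested.

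Mapk12, the p38γ gene, is the fourth p38 gene and lies 1.78 kb from Mapk11 on chromosome 15. It was not among the 10 and is given from the list of other isoforms. Mean levels were 1.62 ± 0.55 FPKM in DUSP6 KO against 2.32 ± 0.51 FPKM in WT spleens (SD, n = 5 each), with 3 DUSP6 KO spleens below every WT spleen. Its log2 fold change was −0.52 (SE 0.23), with an unadjusted p of 0.049 and an adjusted p of 0.875 in limma, and left-out libraries moved it between −0.68 and −0.40, with an unadjusted p over 0.05 in 8 of 10 such fits.

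**Figure D2:**
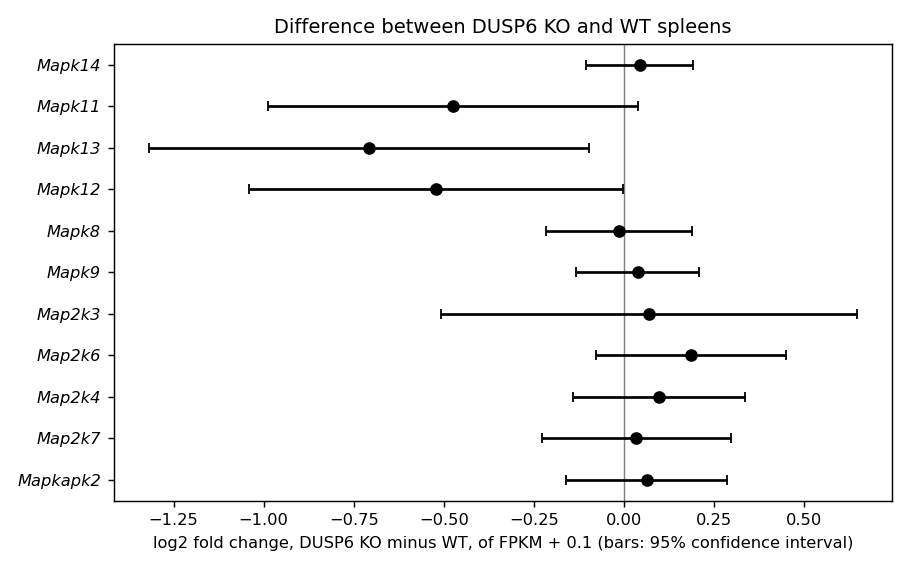
Log2 fold change (horizontal axis, DUSP6 KO minus WT, of FPKM + 0.1) of the 10 kinases and Mapk12, with the 95% confidence interval from limma as bars. The intervals of Mapk13 (−1.32 to −0.10) and Mapk12 lie below 0, that of Mapk11 ends just above it, and those of the JNK genes, Mapk14, the MAP2 kinases and Mapkapk2 include 0.

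Within each spleen, the make-up of the p38 family was described as the share of each gene in the summed p38 FPKM. Mapk14 made up 80.7 ± 3.5% in DUSP6 KO and 73.9 ± 4.8% in WT spleens (SD, n = 5 each). Mapk11 held 14.99 ± 3.3% and 19.8 ± 4.9%, Mapk12 3.08 ± 0.95% and 4.18 ± 0.83%, and Mapk13 1.23 ± 0.22% and 2.14 ± 1.04%. These shares sum to the whole, so one falls where another rises. WT 77 had the largest Mapk13 share, 3.84%, and WT 67 the largest Mapk11 share, 26.7%.

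**Figure D3:**
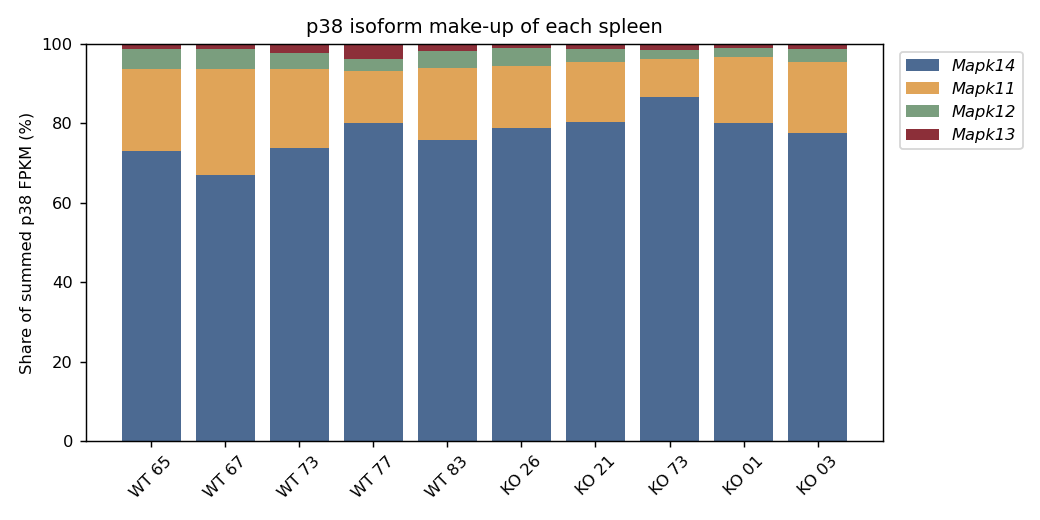
Share of each p38 gene in the summed p38 FPKM (vertical axis, percent) of each of the 10 spleens, WT on the left and DUSP6 KO on the right. Mapk14 fills 66.96% (WT 67) to 86.7% (KO 73) of the bars, and Mapk13 at the top is thickest in WT 77.

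The ratio of Mapk14 to Mapk13 within a library does not depend on the total used for scaling. It was 55.5-fold to 79.3-fold in the DUSP6 KO spleens and 20.9-fold to 53.1-fold in the WT spleens, so that all 5 DUSP6 KO spleens lay above all 5 WT spleens. On the log2 scale the means were 6.05 ± 0.21 and 5.23 ± 0.56 (SD, n = 5 each) and the difference was 0.83, with a 2-sided exact permutation p of 0.0079, the smallest that 5 against 5 can give, and 0.032 after adjustment over 4 ratios. With any 1 library left out the difference was 0.62 to 0.96, the lowest without WT 77. Groups that do not overlap stay apart when a library is dropped, so the exact permutation p of these fits, 0.016, is the smallest they can give and no sign of stability. The denominator is the gene with 33 to 112 reads that moves with the neutrophil markers, as described above. Mapk14 itself had a log2 fold change of 0.04, so the ratio mostly restates the Mapk13 difference of −0.71. In limma that difference had an adjusted p of 0.789 over 21296 genes, a far larger family than the 4 ratios.

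Mapk8 and Mapk9 code for JNK1 and JNK2. Mapk8 (chromosome 14, 33377898 to 33447158, minus strand) stood at 2.63, 2.89, 2.58, 2.59 and 2.63 FPKM in DUSP6 KO spleens 26, 21, 73, 01 and 03, and at 2.49, 2.76, 2.57, 2.75 and 2.89 FPKM in WT spleens 65, 67, 73, 77 and 83. The highest and lowest of the 10 spleens differed by 1.16-fold, the smallest range of any member. Its SD within groups of 0.074 was at percentile 1.47 of all genes tested, again over genes of all levels. The log2 fold change was −0.01 (95% confidence interval −0.22 to 0.19), a sign that turned under median centring (0.003) and without WT 83 (0.01). Mapk9 (chromosome 11, 49846751 to 49886421, plus strand) had 10.2, 10.9, 12.04, 11.5 and 10.7 FPKM in the same order of DUSP6 KO spleens and 10.0002, 10.5, 10.6, 12.1 and 10.5 FPKM in the WT spleens. The 2 groups shared their range, and the log2 fold change was 0.04 (−0.13 to 0.21). By FPKM, Mapk9 was the more abundant JNK gene in every spleen, with Mapk8 at 0.246 of its level. That fraction depends on the deposited gene lengths, 11444 bases for Mapk8 and 6784 bases for Mapk9. The log2 ratio of Mapk8 to Mapk9 differed by −0.05 between the groups (exact permutation p = 0.492, 0.786 adjusted over 4 ratios). Mapk10, the JNK3 gene typical of brain, had 0 to 5 reads per library and was not tested.

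Among the kinases above p38, Map2k3 was the most variable. It lies on chromosome 11 at 60932033 to 60952811 (plus strand) and had 25.9, 18.8, 45.6, 31.2 and 19.0 FPKM in DUSP6 KO spleens 26, 21, 73, 01 and 03, and 26.5, 17.5, 25.6, 37.1 and 23.4 FPKM in WT spleens 65, 67, 73, 77 and 83. DUSP6 KO 73 and WT 77 were high and WT 67, DUSP6 KO 21 and DUSP6 KO 03 low, so both groups held high and low spleens. The range over all 10 was 2.60-fold, and the log2 fold change of 0.07 had a wide interval (−0.51 to 0.65). It turned to −0.13 without DUSP6 KO 73 and to −0.06 without WT 67.

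The spread of Map2k3 ran with the erythroid and B cell markers. Erythroid markers (9, none at 0) summed to 20374 to 105828 FPKM in DUSP6 KO against 24430 to 50157 FPKM in WT spleens. Over 10 libraries Map2k3 rose with them at r = 0.94 (permutation p = 6e-05, adjusted 0.0027) and rho = 0.93 (permutation p = 0.00033, adjusted 0.015), with r = 0.92 without the 2 farthest libraries and 0.94 within groups. With the B cell markers it gave r = −0.96 (permutation p = 1e-05, the smallest that 100000 resamples can give, adjusted 0.0009) and rho = −0.96 (permutation p = 8e-05, adjusted 0.0072), −0.88 without the 2 farthest libraries and −0.97 within groups. These lists share the libraries and their total, so the relations are not independent of each other. The genes most like Map2k3 were Picalm (r = 0.99), which codes for a clathrin assembly protein, Arhgap19 (0.99) and Daam1 (0.99). The part of the erythroid level in the Map2k3 values was not tested.

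**Figure D4:**
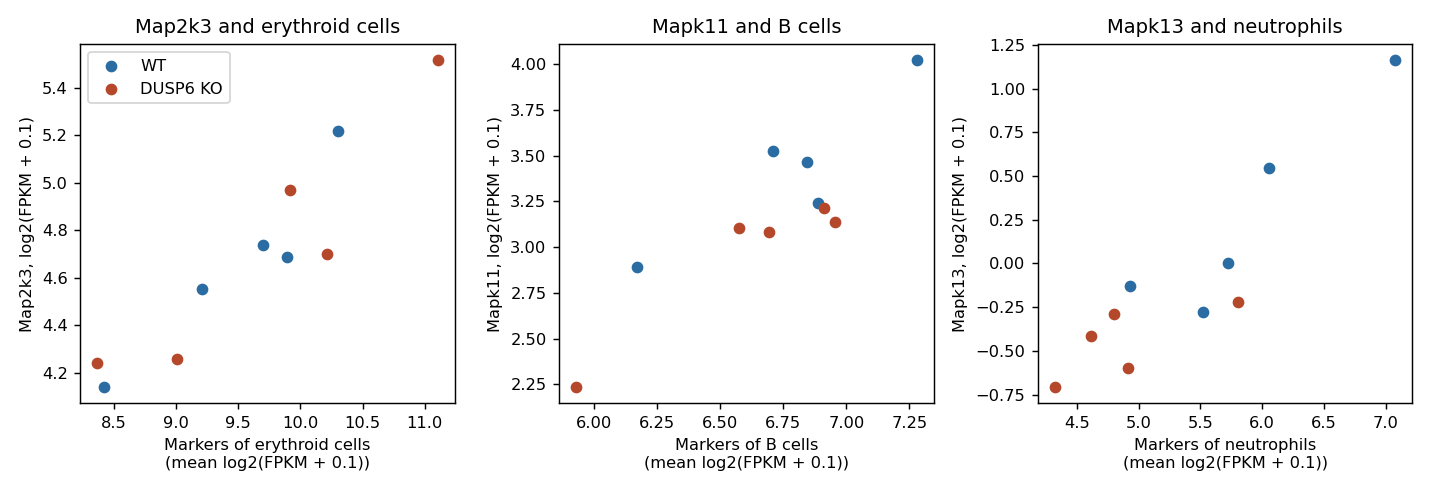
Log2 levels of Map2k3, Mapk11 and Mapk13 (vertical axes, log2(FPKM + 0.1)) against the mean log2 level of the markers of erythroid cells, B cells and neutrophils (horizontal axes) in the 10 spleens, 1 point per spleen. Map2k3 and the erythroid markers rise together in both groups (r = 0.94), Mapk11 rises with the B cell markers (r = 0.88), and Mapk13 with the neutrophil markers (r = 0.91), with WT 77 at the upper right.

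Map2k6, the other p38 activator (chromosome 11, 110399122 to 110525522, plus strand), was less abundant, with Map2k3 at 8.74-fold its level. DUSP6 KO spleens 26, 21, 73, 01 and 03 had 2.82, 3.76, 3.07, 2.98 and 3.29 FPKM, and WT spleens 65, 67, 73, 77 and 83 had 3.24, 3.01, 2.59, 2.39 and 2.71 FPKM. The upper DUSP6 KO values, those of 21 and 03, lay above every WT spleen, and the remaining values overlapped. The log2 fold change of 0.19 was the highest of the 10 but did not pass the test (SE 0.12, 95% confidence interval −0.08 to 0.45, unadjusted p of 0.148 and adjusted p of 0.953 in limma). The log2 ratio of Map2k3 to Map2k6 differed by −0.12 between the groups (exact permutation p = 0.786, also after adjustment).

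Map2k4 (chromosome 11, 65688243 to 65788297, minus strand), which can feed both JNK and p38, had 14.1, 12.02, 15.9, 15.1 and 11.6 FPKM in DUSP6 KO spleens 26, 21, 73, 01 and 03, and 13.7, 11.2, 13.1, 13.99 and 11.9 FPKM in WT spleens 65, 67, 73, 77 and 83. DUSP6 KO spleens 73, 01 and 26 lay above every WT value. On the log2 scale the groups differed by 0.10 (95% confidence interval −0.14 to 0.34). Map2k4 followed Map2k3 over the spleens (r = 0.91, permutation p = 0.00027, 0.012 adjusted over 45 pairs of members; rho = 0.90, permutation p = 0.00094, adjusted 0.042; r = 0.83 without the 2 farthest libraries and 0.93 within groups). It too rose with the erythroid markers (r = 0.90, rho = 0.87, permutation p adjusted over 90 of 0.010 and 0.041; 0.89 without the 2 farthest libraries) and fell with the B cell markers (r = −0.84, rho = −0.92, adjusted permutation p of 0.017 and 0.015; −0.86 without the 2 farthest).

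Map2k7, the JNK-specific activator, lies on chromosome 8 at 4238740 to 4247897 (plus strand). Its levels were 9.48, 13.003, 9.999, 9.47 and 13.6 FPKM in DUSP6 KO spleens 26, 21, 73, 01 and 03 and 10.9, 11.8, 10.4, 10.04 and 10.6 FPKM in WT spleens 65, 67, 73, 77 and 83. The DUSP6 KO values fell on both sides of the WT range, with 2 above it (21 and 03) and 3 below it. A log2 fold change of 0.03 (95% confidence interval −0.23 to 0.30) was fitted and turned to −0.03 without DUSP6 KO 21 and to −0.04 without DUSP6 KO 03. The log2 ratio of Map2k4 to Map2k7 ranged from −0.24 to 0.67 in DUSP6 KO and from −0.07 to 0.48 in WT spleens, a difference of 0.06 (exact permutation p = 0.786, also after adjustment).

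Mapkapk2, at the end of the cascade, was the most abundant member (chromosome 1, 131053700 to 131097826, minus strand). It had 56.2, 69.7, 52.4, 56.1 and 69.2 FPKM in DUSP6 KO spleens 26, 21, 73, 01 and 03, and 59.3, 64.7, 58.4, 51.2 and 55.9 FPKM in WT spleens 65, 67, 73, 77 and 83. DUSP6 KO 21 and 03, the spleens highest in Map2k7, were also the highest here. Its log2 fold change was 0.06 (95% confidence interval −0.16 to 0.29). Over the 10 spleens Mapkapk2 ran with Map2k7 (r = 0.90, permutation p adjusted over 45 of 0.014) and against Map2k3 (r = −0.88, adjusted permutation p of 0.019), neither of which passed by rho (0.76 and −0.79, adjusted permutation p = 0.114 for both). Without the 2 farthest libraries these were 0.72 and −0.90. Mapkapk2 fell as the erythroid markers rose (r = −0.85, rho = −0.84, adjusted permutation p of 0.022 and 0.043; −0.75 without the 2 farthest libraries).

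Of the 90 relations between a member and a cell type list, 9 passed by r after adjustment and 6 by both r and rho, and of the 45 pairs of members 3 passed by r and 1 by both. The relations that passed by r alone were those of Mapk11 with B cells and of Map2k3 (r = −0.88, rho = −0.71) and Mapk9 (r = −0.82, rho = −0.70) with T cell markers, whose adjusted permutation p by rho was 0.211 for each, and r was −0.61 and −0.51 without the 2 farthest libraries. By rho alone, Map2k7 passed with the erythroid (rho = −0.84, r = −0.77) and B cell markers (rho = 0.84, r = 0.58) and Mapkapk2 with the B cell markers (rho = 0.83, r = 0.77). T cell markers summed to 120 to 241 FPKM in DUSP6 KO against 152 to 214 FPKM in WT spleens, with 0 of 8 past an unadjusted p of 0.05. Among the other lists, 5 of 10 macrophage markers and 4 of 9 stromal markers were higher in DUSP6 KO spleens at an unadjusted p under 0.05, 2 of 6 platelet markers and 1 of 7 plasma cell markers were lower, and no marker of the erythroid or pancreas lists passed either way, beside 2.62% of all genes higher and 3.03% lower. None of these markers passed after adjustment in limma.

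Set in order of mean level per length, the members ran from Mapkapk2 (59.3 FPKM over all 10 spleens) through Mapk14 (41.5), Map2k3 (27.1), Map2k4 (13.3), Map2k7 (10.9), Mapk9 (10.9), Mapk11 (9.46), Map2k6 (2.99) and Mapk8 (2.68) to Mapk13 (0.914). Neighbours were compared within libraries by a 2-sided exact sign-flip permutation test, adjusted over 9 pairs. Map2k7 and Mapk9 (adjusted p = 0.914 by the exact test), Mapk9 and Mapk11 (0.167) and Map2k6 and Mapk8 (0.058) did not differ beyond their spread over all 10 spleens. The place of Mapk11 differed between the groups: Mapk9 was above it in 5 of 5 DUSP6 KO spleens (mean log2 difference 0.53) and in 2 of 5 WT spleens (0.0096), and by WT means alone Mapk11 (11.04 FPKM) came before Mapk9 (10.77 FPKM) and Map2k7 (10.73 FPKM), a difference between groups that was not tested for this pair. Map2k4 was above Map2k7 in 7 of 10 spleens with an adjusted exact permutation p of 0.0498, and the other 5 steps had 0.0044 or 0.0070. Mapkapk2 was above Mapk14 in all 10 spleens, by 1.147-fold to 1.74-fold with a mean of 1.42-fold.

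Around the kinases, 7 lists of pathway genes held 68 genes, of which 63 passed the filter. At an unadjusted p under 0.05, 1 of these was higher and 2 were lower in DUSP6 KO spleens. Over all genes 2.62% were higher and 3.03% lower. Both directions together made 4.76% of the 63, beside 1205 of all 21296 genes tested. After adjustment 0 of the 63 passed, and their median log2 fold change was −0.0008. None of 20 MAP3 kinases and their partners passed in either direction (median −0.02), and the extremes were Map3k20 (0.28), a stress-activated MAP3 kinase, and Map3k2 (−0.26). Map3k20 was at 0.09 without DUSP6 KO 73, and Map3k2 had an unadjusted p in limma of 0.011 without DUSP6 KO 21, 0.028 without WT 65 and 0.046 under median centring. The 5 of 6 JNK and p38 scaffolds that passed the filter had a median of 0.07, from Spag9 (−0.14) to Mapk8ip1 (0.21), which codes for the JNK scaffold JIP1, and none passed the test. The 6 kinases downstream of p38 beside MK2 had a median of −0.10, from Mapkapk3 (−0.18), the closest relative of MK2, to Mknk2 (0.01), without a call.

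Among 10 phosphatases that remove phosphate from p38 and JNK, 1 was higher at an unadjusted p, beside 2.62% of all genes, and the median was 0.04. This was Dusp1, the immediate early phosphatase that inactivates p38 and JNK in the nucleus. Dusp1 stood at 16.9 (26), 28.1 (21), 17.4 (73), 19.2 (01) and 23.5 (03) FPKM in DUSP6 KO spleens and at 10.8, 12.4, 13.2, 13.96 and 15.3 FPKM in WT spleens 65, 67, 73, 77 and 83. All 5 DUSP6 KO spleens were above all WT spleens, as in 0.549% of all genes, and Dusp1 is named here as the extreme of its list. Its log2 fold change was 0.66 (SE 0.15, 95% confidence interval 0.33 to 0.99), with an unadjusted p of 0.0012 and an adjusted p of 0.344 in limma. The lowest of the list was Dusp10 (−0.20), another p38 and JNK phosphatase.

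The 11 transcription factors phosphorylated by p38 or JNK had no call and a median of −0.06, from Elk1 (−0.34) to Atf2 (0.06, and −0.0006 without DUSP6 KO 73). Of 13 genes for mRNA-binding proteins of the MK2 pathway and the mRNAs they control, 10 passed the filter, with a median of −0.0016. The cytokine gene Il10 was lower at an unadjusted p, beside 3.03% of all genes (log2 fold change −1.37, unadjusted p of 0.040 and adjusted p of 0.842 in limma). It had 0 to 11 reads in DUSP6 KO and 2 to 23 reads in WT libraries. Its log2 fold change depended on the pseudocount (−0.43 with 1, and −2.24 with 0.01, where the unadjusted p in limma was 0.054), and the unadjusted p exceeded 0.05 with no filter (0.055) and in 8 of 10 fits with a library left out (up to 0.098 without DUSP6 KO 73), all but those without DUSP6 KO 26 and WT 65. The paper reported the other direction for protein, with more IL10 in serum and more IL10+ spleen cells in DUSP6 KO mice. Neither is a measure of spleen mRNA, and the difference was not tested. The chemokine gene Cxcl1 was highest of this list (0.55, unadjusted p of 0.143 in limma), from 2 to 12 and 2 to 6 reads, with 0.14 at a pseudocount of 1, 0.81 at 0.01, and 0.79 without DUSP6 KO 26 (unadjusted p of 0.019 in limma). Il6, Ptgs2 and Cxcl2 were under the filter. For comparison, the 8 kinases of the ERK module, the branch on which DUSP6 acts, had no call and a median of −0.01, from Araf (−0.15) to Mapk3 (0.06), the ERK1 gene.

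**Figure D5:**
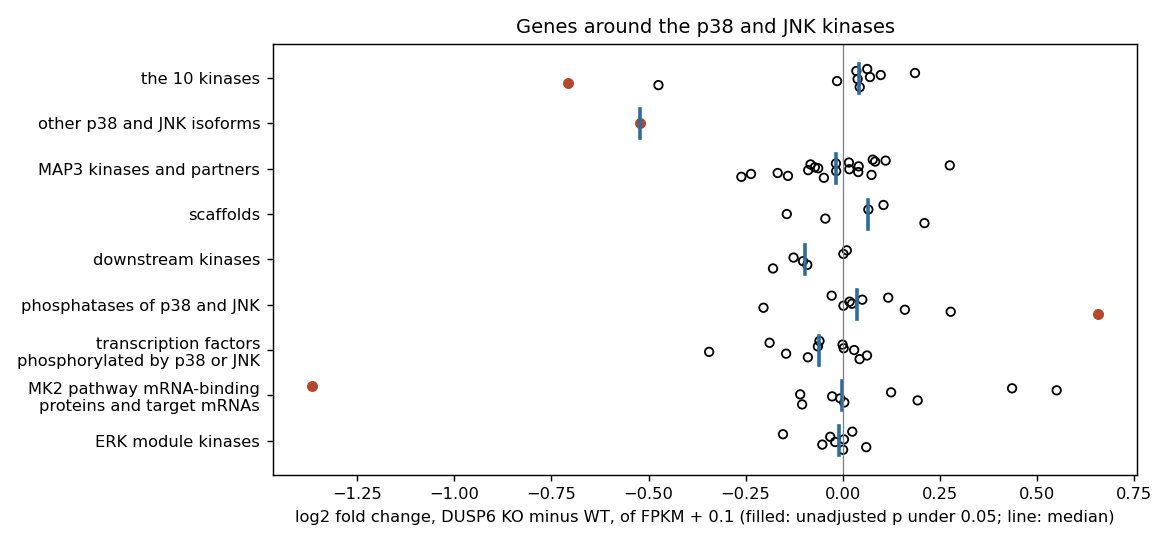
Log2 fold change (horizontal axis, DUSP6 KO minus WT, of FPKM + 0.1) of each tested gene in the 10 kinases and 8 lists around them (rows), filled where the unadjusted limma p was under 0.05, with a vertical line at each median. Most points lie near 0, and the 4 filled points are Mapk13, Mapk12, Il10 (−1.37) and Dusp1 (0.66).

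Similarity in level over the 10 libraries was also described for the remaining members, with no test. The most similar gene was Tbc1d9b for Mapk14 (r = 0.91), Ankrd37 for Mapk8 (0.91), Stam for Mapk9 (0.98), Cdc25c for Map2k4 (0.97), Prex1 for Map2k6 (0.95), Nkiras2 for Map2k7 (0.95) and Arhgap27os3 for Mapkapk2 (0.98). With 13421 genes compared over 10 points that share depth and cell make-up, high values of r are found for every member.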

How the data were processed

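Poly(A) RNA of 10 spleens, 1 library per mouse, was sequenced as paired-end reads. The authors deposited FPKM values, made from HISAT2 alignments through gene counts of featureCounts 1.5.0-p3. The labels list hg38 for these mouse samples. Of 54409 gene identifiers shared with GENCODE M21 (GRCm38), 98.3% had identical coordinates, all members included, so positions are on GRCm38. FPKM times gene length gave whole reads (within 0.001 of a read, 100% of values), from which depth was read. Library strandedness is not given in the sources used here, and genes overlapping Mapk14, Mapk8, Map2k4, Map2k7 and Mapkapk2 had at most 0.624 FPKM.

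Log2(FPKM + 0.1) was fitted in limma 3.58.1 (R 4.3.3, eBayes with trend, threshold 0.05) where a gene's mean reached 0.1 FPKM, and fold changes on this scale understate those of low genes. The script was tested on simulated data. Ratios, neighbours in level and correlations had exact or 100000-resample permutation tests (scipy 1.17.1), 2-sided; the correlation families were added after the design was set. Alternatives were other pseudocounts (1 and 0.01), filters (a mean of 1, none), scalings, limma voom on the recovered reads and each library left out. Replicate pairs differed by more than sampling noise (chi-square per gene 13.4 to 151 over 20 pairs). Members and lists were chosen with earlier results of these data known. Named genes were the members, Mapk12, Mapk10, Dusp6, the extremes of each list and the 3 genes most like each member, of which the text prints 1 to 3.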

Additional observations from a re-analysis of the deposited data

Results flagged for a closer look

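Within groups of 5, 3 of 62 sets of values examined held a spleen far from the others by Dixon's criterion, and chance gives about 3.1. Mapk11 stood at 4.61 FPKM in DUSP6 KO 73, with the next DUSP6 KO spleen at 8.37 FPKM, and this spleen also had the lowest B cell marker sum (648 FPKM) and the highest erythroid sum (105828 FPKM). Mapk8 stood at 2.89 FPKM in DUSP6 KO 21, with the next at 2.63 FPKM, in a group that otherwise spanned 2.58 to 2.63 FPKM. Mapk9 stood at 12.1 FPKM in WT 77, with the next WT spleen at 10.6 FPKM.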

How the results depend on the processing

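Over 189 fits of the members under the alternatives, 183 kept the direction, 6 turned, and none passed after adjustment (smallest adjusted p 0.678, limma). The count of members lower at an unadjusted p went from 1 to 0 at a minimum mean of 1 FPKM, where Mapk13 was not tested, and to 0 to 1 with libraries left out (0 without DUSP6 KO 26, DUSP6 KO 01 or WT 73; without WT 77 the 1 was Mapk11). In the pathway lists the 2 lower genes became 1 with pseudocounts of 1 and 0.01, a minimum mean of 1 FPKM, eBayes without trend and quantile normalization, 0 with no filter, and 0 to 3 with libraries left out, where the 1 higher gene became 1 to 3. The log2 fold change of Mapk8 turned to 0.0032 under median centring. With libraries left out, log2 fold changes ran from −0.043 to 0.0101 for Mapk8 (positive without WT 83), from −0.0432 to 0.0873 for Map2k7 (negative without DUSP6 KO 21 or 03), from −0.125 to 0.208 for Map2k3 (negative without DUSP6 KO 73 or WT 67), from −0.0056 to 0.0318 for Mknk2 (negative without DUSP6 KO 26, DUSP6 KO 73 or WT 73) and from −0.00057 to 0.118 for Atf2 (negative without DUSP6 KO 73). The log2 ratio difference of Map2k3 to Map2k6 ran from −0.33 to 0.0698 and that of Map2k4 to Map2k7 from −0.027 to 0.20. The cause of these changes was not tested. No paired analysis was made, because the spleens came from different mice and the labels give no pairing. DUSP6 KO 73 and WT 73 share a number but are separate animals. Read counts were low for Mapk13 (33 to 112 reads), Il10 (0 to 23) and Cxcl1 (2 to 12), and Mapk10, Il6, Ptgs2 and Cxcl2 had too few for the filter.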
